A study of Mus musculus with 12 samples.

Results

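The interleukin-1 (IL-1) system was followed through 7 genes in A20 tumors. These were the ligand genes Il1a and Il1b, the antagonist gene Il1rn, and the receptor genes Il1r1, Il1rap, Il1r2 and Il1rl1. They were taken by gene symbol from the 770 genes of an nCounter mouse immune panel, an assay that counts barcoded probes hybridized to total RNA without amplification. Of those 770 genes, 20 were reference genes used for scaling and 750 were tested, and all 7 IL-1 genes were among the 750. A20 is a B-cell lymphoma line of Balb/c origin. In this study the cells were implanted under the skin of female Balb/c mice, whose own immune system was intact, and tumors of about 7 days were injected 3 times, every other day. The PBS group received saline, the SE group the stable emulsion alone, and the GLA-SE group 10 ug of GLA in 50 ul of 2% stable emulsion. GLA (glucopyranosyl lipid A) is a synthetic agonist of toll-like receptor 4 (TLR4). Each group held 4 tumors, each from a different mouse, and tumors were collected 2 hours after the last injection.

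IL-1 alpha and IL-1 beta are inflammatory cytokines that bind the same receptor, IL-1R1, which then recruits the accessory protein encoded by Il1rap and signals through MyD88 and IRAK kinases to NF-kB. IL-1 beta is made as a precursor that caspase-1 cleaves in inflammasomes, so its mRNA is not a measure of the active cytokine. The product of Il1rn occupies IL-1R1 without signaling, and the product of Il1r2 is a decoy receptor that binds IL-1 without signaling. Il1rl1 encodes ST2, the receptor for IL-33, which uses the same accessory protein. Myeloid cells are the best known source of IL-1 beta, and TLR4 ligands are a classical trigger of Il1b transcription.

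In the mouse genome (GRCm38.p6, RefSeq annotation) the 3 genes for the ligands and the antagonist lie on chromosome 2, with Il1a at chr2:129299609-129310186, Il1b at chr2:129364569-129371164 and Il1rn at chr2:24336860-24351491. Il1r2 (chr1:40084692-40125230), Il1r1 (chr1:40222480-40316201) and Il1rl1 (chr1:40404864-40465418) are neighbors on chromosome 1, and Il1rap is at chr16:26581509-26730128. The promoter sequences of Il1b, the IL-1 gene with the largest difference between GLA-SE and PBS, and of Il1rn, its antagonist, are shown because the ratio of these 2 mRNAs is compared within each tumor. Both are RefSeq sequences of that build, written 5′ to 3′ on the strand of the gene. The Il1b stretch is chr2:129371165-129371389 on the minus strand, without the 25 bases nearest the start site, which are annotated within the gene. The Il1rn stretch is chr2:24336610-24336859 on the plus strand, upstream of the first of its 3 annotated start sites. Capitals mark the motif matches described after the sequences.
Il1b: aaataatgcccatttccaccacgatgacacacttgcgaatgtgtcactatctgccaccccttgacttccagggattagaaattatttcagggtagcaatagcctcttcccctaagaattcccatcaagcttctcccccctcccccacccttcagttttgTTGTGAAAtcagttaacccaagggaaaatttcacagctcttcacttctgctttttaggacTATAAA
Il1rn: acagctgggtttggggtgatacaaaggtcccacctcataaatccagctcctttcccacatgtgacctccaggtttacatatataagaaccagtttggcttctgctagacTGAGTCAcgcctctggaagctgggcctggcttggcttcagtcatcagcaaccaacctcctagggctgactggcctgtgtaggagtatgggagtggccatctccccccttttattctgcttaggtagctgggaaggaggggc
Il1b had a TATAAA box that began 31 bases before the start site and a C/EBP match (TTNNGNAA) 91 bases before it. The Il1rn window shown had an AP-1 match (TGANTCA) 141 bases before its start site, and neither TATAAA nor a C/EBP match. The windows of the other Il1rn start sites, not printed, did hold C/EBP matches. These lay 81 bases before the second start site and 161, 65 and 64 bases before the third. Il1a, not printed, had a TATAAA box 32 bases, an AP-1 match 12 bases and a C/EBP match 43 bases before its start site. Both strands of the 250 bases before each start site were searched for these 3 motifs and for an NF-kB consensus. Of 32851 such windows in the genome, 12.4% held TATAAA, 6.75% the AP-1 letters, 36.8% the C/EBP letters and 3.9% the NF-kB consensus. Among the windows of the 7 genes, the NF-kB consensus was found in 1 window of Il1r1, 232 bases before the start site. These matches are letters in the reference genome, and binding was not measured.

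Summed over the panel, the tumors had 810260 to 1612415 counts. For comparison between tumors, counts were divided by the geometric mean of the 16 most stable reference genes, brought to a common level. That mean ranged from 927 counts in SE tumor 4 to 2806 in SE tumor 1. Values given as counts are these reference-scaled counts unless stated otherwise. SE tumor 4 stood apart over the panel, with a mean deviation of 1.15 on the log2 scale from its group median, against 0.174 to 0.553 in the other tumors. Over the 7 IL-1 genes, GLA-SE tumor 3 deviated most, by 1.76 on average, so fold changes of the IL-1 genes are also given without these tumors. B-cell markers were present in every tumor, with summed counts of 19769 to 23116 in PBS, 13915 to 22514 in SE and 16296 to 18966 in GLA-SE. Because a probe's efficiency differs from gene to gene, levels are compared between tumors and not between genes.

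All 7 IL-1 genes were higher in GLA-SE than in PBS tumors, with the 4 GLA-SE values above the 4 PBS values for every gene on the reference-gene scale, though Il1r1 and Il1rap turned below 0 when the panel median set the scale. The ligands showed the largest differences, Il1b 36.7-fold and Il1a 14.7-fold on group means, followed by the antagonist Il1rn at 6.58-fold. The IL-33 receptor gene Il1rl1 (4.05-fold) and the decoy receptor gene Il1r2 (4.01-fold) came next, and the signaling receptor pair Il1r1 (2.20-fold) and Il1rap (2.12-fold) differed least. A gene is called here when its adjusted p is under 0.05 in edgeR's quasi-likelihood test with Benjamini-Hochberg adjustment over the 750 tested genes. All 7 IL-1 genes were called higher in this comparison, in which 68.4% of all tested genes were called higher and 0.4% lower. Groups that did not overlap, with GLA-SE above PBS, were seen for 63.7% of the tested genes. Against such a background the number of IL-1 genes called says little about them, and the sizes of their differences are described instead. By log2 fold change, Il1b ranked 1 of 750, Il1a 8, Il1rn 27, Il1rl1 68, Il1r2 70, Il1r1 289 and Il1rap 303. These folds and ranks rest in part on GLA-SE tumor 3. Without it Il1b was 12.5-fold higher (rank 3), Il1a 3.97-fold (36), Il1rl1 2.90-fold (101), Il1rn 2.85-fold (105), Il1r2 2.64-fold (140), Il1r1 1.95-fold (300) and Il1rap 1.84-fold (325), so that Il1rl1 then stood above Il1rn.

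The Il1b count in PBS tumors 1 to 4 was 123, 69.1, 102 and 138. In GLA-SE tumors 1 to 4 it was 418, 1247, 11840.4 and 2383. All GLA-SE tumors lay above the highest PBS tumor, and they differed among themselves by 28.3-fold from lowest to highest. The log2 fold change was 5.20 (SE 1.02, n = 4 per group, adjusted p = 0.00254 in edgeR's quasi-likelihood test), and it was 3.64 without GLA-SE tumor 3. In the SE tumors Il1b was 252, 88.9, 333 and 629, of which tumor 2 lay among the PBS values and the other 3 above them.

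The Il1a count in PBS tumors was 31.3, 23.4, 36.5 and 34.2. In GLA-SE tumors it was 98.7, 98.8, 1478 and 178, so that tumor 3 was 8.31-fold above the next highest. Leaving that tumor out, the other 3 averaged 125 ± 45.7 (SD, n = 3), still above every PBS tumor. The log2 fold change was 3.88 (SE 0.97, adjusted p = 0.00762 in edgeR's test) with all tumors and 1.99 without GLA-SE tumor 3. In the SE tumors Il1a was 51.3, 60.3, 131 and 149. All 4 SE tumors were above all 4 PBS tumors for Il1a, which was not so for any other IL-1 gene.

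Il1rn, which encodes the receptor antagonist, was 625, 463, 408 and 495 in PBS tumors. It was 886, 1493, 8857 and 1872 in GLA-SE tumors, again highest in tumor 3, at 4.73-fold above the next. The log2 fold change was 2.72 (SE 0.69, adjusted p = 0.00793 in edgeR's test) and 1.51 without GLA-SE tumor 3. In SE tumors Il1rn was 520, 321, 2129 and 1729, with tumors 1 and 2 within or below the PBS range and tumors 3 and 4 above it.

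**Figure D1:**
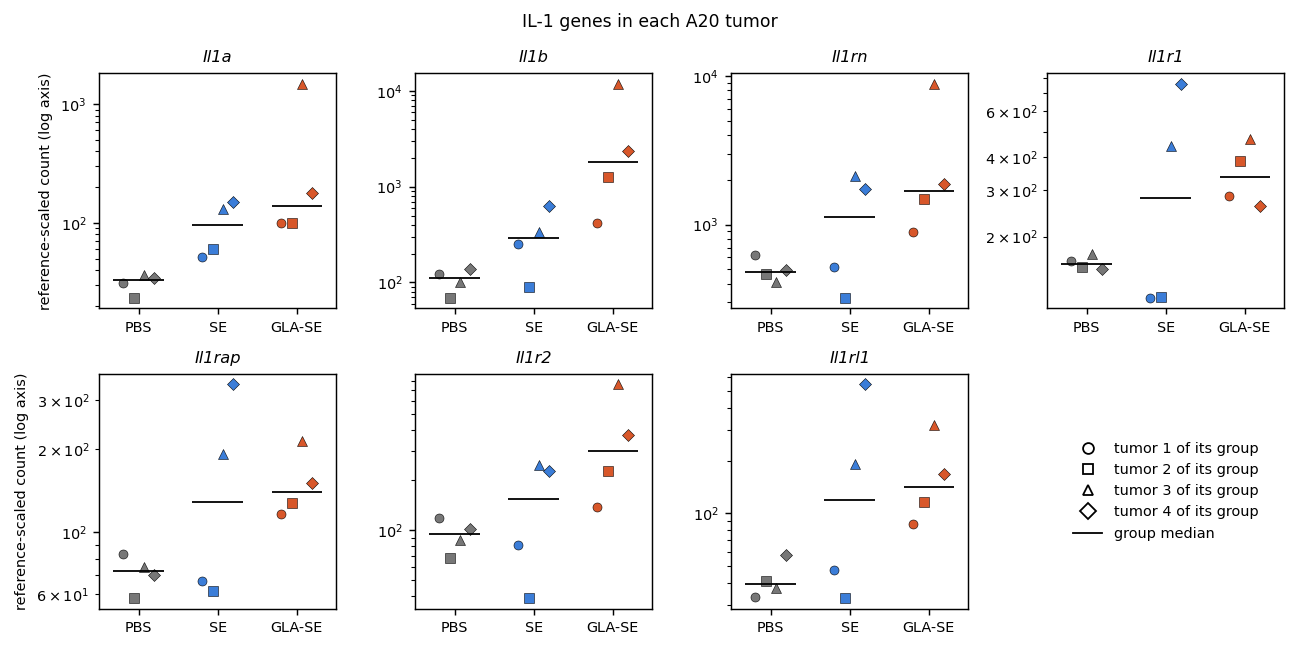
Reference-scaled counts (log axis) of the 7 IL-1 genes in each of the 12 tumors, grouped by treatment, with a symbol for each tumor number and a line at the group median. GLA-SE tumor 3 was the highest of its group for all 7 genes (11840.4 for Il1b), and SE tumors separated into tumors 1 and 2 near PBS and tumors 3 and 4 above it for Il1rn and the receptor genes.

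The signaling receptor gene Il1r1 had a narrow range in PBS tumors, at 161, 153, 172 and 150.2. It was 285, 388, 467 and 261 in GLA-SE tumors, all above PBS and within 1.79-fold of each other. The log2 fold change was 1.14 (SE 0.21, adjusted p = 0.00186 in edgeR's test), and 0.97 without GLA-SE tumor 3. In SE tumors it was 117 and 118 in tumors 1 and 2, below every PBS tumor, and 441 and 758 in tumors 3 and 4.

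Il1rap, the gene for the accessory chain, was 83.4, 57.9, 75.3 and 69.95 in PBS and 116, 128, 213 and 151 in GLA-SE tumors. Its log2 fold change was 1.08 (SE 0.24, adjusted p = 0.00472 in edgeR's test), and 0.88 without GLA-SE tumor 3. Its SE values were 66.6, 61.3, 192 and 343, so the same 2 SE tumors were high for both chains of the receptor. The decoy receptor gene Il1r2 was 118, 68.2, 87.0 and 102 in PBS and 138, 229, 760 and 375 in GLA-SE tumors. Its log2 fold change was 2.00 (SE 0.49, adjusted p = 0.0072 in edgeR's test), and it dropped to 1.40 without GLA-SE tumor 3. In SE tumors Il1r2 was 81.3, 38.8, 248 and 226, of which tumor 2 had the lowest value of all 12 tumors. Il1rl1, encoding ST2, was 33.2, 41.1, 37.3 and 58.0 in PBS and 87.1, 115, 319 and 168 in GLA-SE tumors. Its log2 fold change was 2.02 (SE 0.42, adjusted p = 0.00348 in edgeR's test), and 1.54 without GLA-SE tumor 3. In SE tumors Il1rl1 was 47.3, 32.7, 192 and 547, and the value of tumor 4 was the highest of all 12. Each of the 7 genes remained called when any single tumor was left out, in 8 of 8 fits. A two-sided exact permutation test on log2 counts gave p = 0.0286 for each gene, the smallest value that 4 against 4 tumors allow, and 0.075 after adjustment over 21 such tests.

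The scale mattered for the receptor genes. Most of the panel was higher in GLA-SE than in PBS on the reference-gene scale, and the median log2 fold change over the 750 genes was 0.90, against 2.02 for the 7 IL-1 genes. Set to the panel's own median, Il1b was still 3.72 and Il1a 2.35 higher on the log2 scale and both were called. Il1rn (1.26), Il1rl1 (0.65) and Il1r2 (0.64) were then not called, and Il1r1 (-0.20) and Il1rap (-0.23) turned below 0. Under that scaling 61 of the 750 genes were called higher and 307 lower. With TMM scaling Il1b, Il1a, Il1rn and Il1rl1 were called (4.15, 2.80, 1.69 and 1.04), while Il1r1 was 0.19 and Il1rap 0.16. Which scale reflects the RNA per tumor cannot be told from these counts.

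**Figure D2:**
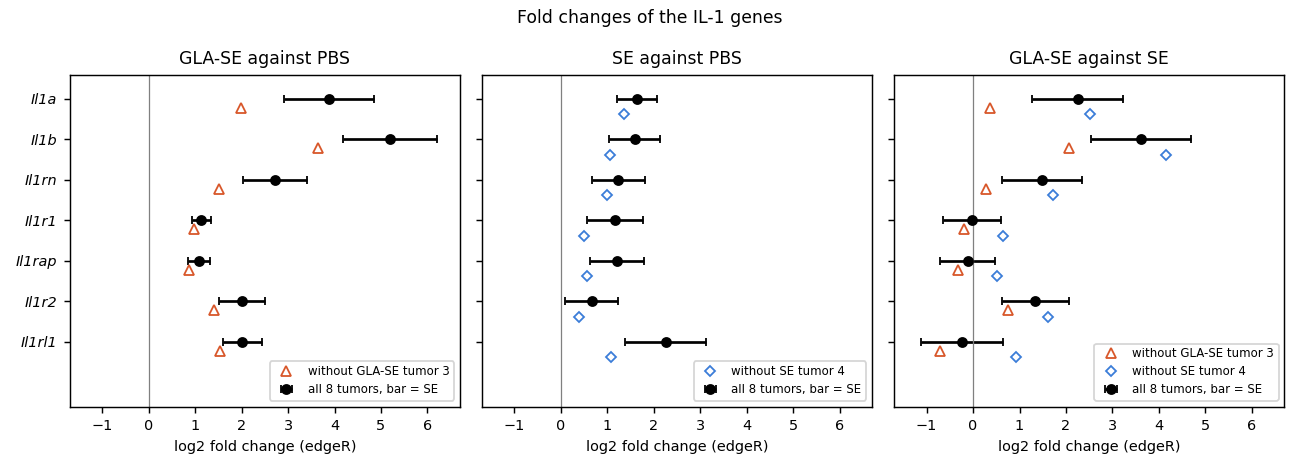
Log2 fold changes from edgeR for the 7 IL-1 genes in the 3 comparisons on the reference-gene scale, with bars of 1 SE, and open symbols for the value without GLA-SE tumor 3 (triangles) or without SE tumor 4 (diamonds). In GLA-SE against PBS every gene lies above 0 with and without tumor 3, and in GLA-SE against SE the 3 receptor genes Il1r1, Il1rap and Il1rl1 lie near 0 and change side without SE tumor 4.

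SE alone was compared with PBS to see what the emulsion did without the agonist. All 7 log2 fold changes were above 0, from 0.66 for Il1r2 to 2.26 for Il1rl1, but none was called, and none of the 750 genes was called (0%). At an unadjusted p under 0.05 in edgeR's test, 3 IL-1 genes were higher (Il1a, Il1b and Il1rl1), against 17.1% of the tested genes. Il1a was the gene with the most even difference, at 1.63 (SE 0.43, adjusted p = 0.256 in edgeR's test) and 1.35 without SE tumor 4. Its groups did not overlap, as for 8% of the tested genes in that direction, and the two-sided exact permutation test gave p = 0.0286 (0.075 after adjustment over 21 tests). DESeq2 called Il1a (1.62, adjusted p = 0.0107) and none of the other 6 IL-1 genes in this comparison. Unlike edgeR, DESeq2 also called other panel genes here, with counts given in the closing section. For Il1b the log2 fold change was 1.59 (SE 0.55) and 1.05 without SE tumor 4. For Il1rn it was 1.24 (SE 0.57), 0.99 without that tumor and 0.78 without SE tumor 3. Without SE tumor 4, Il1rl1 went from 2.26 to 1.08, Il1r1 from 1.17 to 0.50 and Il1rap from 1.20 to 0.57. Il1r2 went from 0.66 to 0.38 without SE tumor 4 and to 0.29 without SE tumor 3. This comparison and GLA-SE against PBS share the same 4 PBS tumors.

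GLA-SE was compared with SE to ask what the agonist added to the emulsion. Il1b was 12.2-fold higher on group means and ranked 2 of 750, with a log2 fold change of 3.61 (SE 1.08), but its adjusted p was 0.138 in edgeR's quasi-likelihood test. None of the 7 IL-1 genes was called, against 2.13% of tested genes called higher and 0% lower, and at an unadjusted p under 0.05 only Il1b was higher, against 17.5% of tested genes. No IL-1 gene had groups that did not overlap, against 14.7% of the tested genes. The lowest GLA-SE tumor for Il1b (418) lay below the highest SE tumor (629), and the exact permutation test for Il1b gave p = 0.0571 (two-sided). Without GLA-SE tumor 3 the log2 fold change of Il1b was 2.05 (adjusted p = 0.313 in edgeR's test), and without SE tumor 4 it was 4.15 (adjusted p = 0.0665). DESeq2 with the reference size factors called Il1b in this comparison (3.61, adjusted p = 0.00568). So did edgeR with all 12 tumors in 1 fit (3.61, adjusted p = 0.0374) and edgeR on counts as deposited (3.81, adjusted p = 0.0339). Each of these settings also called more of the tested genes than the 2.13% of the main fit, with counts given in the closing section. With TMM scaling (3.22, adjusted p = 0.135) and panel median scaling (2.85, adjusted p = 0.126), edgeR did not call Il1b.

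For the other genes the difference between GLA-SE and SE was smaller or rested on 1 tumor. Il1a was 2.25 (SE 0.99, adjusted p = 0.269 in edgeR's test) with all tumors and 0.36 without GLA-SE tumor 3. Il1rn went from 1.48 (SE 0.87) to 0.27 without that tumor, and Il1r2 from 1.34 (SE 0.72) to 0.74. The 3 receptor genes Il1r1 (-0.03, SE 0.62), Il1rap (-0.12, SE 0.59) and Il1rl1 (-0.24, SE 0.89) had no settled direction, and without SE tumor 4 they were 0.64, 0.52 and 0.93. Their standard errors are wide, so a moderate difference of either sign could have been missed with these 8 tumors. This comparison shares its GLA-SE tumors with GLA-SE against PBS and its SE tumors with SE against PBS.

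Ratios between 2 genes within a tumor do not depend on how tumors are scaled to each other. The log2 ratio of Il1b to Il1rn was -2.33, -2.73, -1.997 and -1.83 in PBS tumors. It was -1.08, -0.26, 0.42 and 0.35 in GLA-SE tumors, all above the PBS tumors. In SE tumors it was -1.04, -1.84, -2.67 and -1.45. The agonist group thus had more Il1b mRNA per Il1rn mRNA than PBS, by 2.08 on the log2 scale (-0.14 ± 0.70 against -2.22 ± 0.40, SD, n = 4 each). The two-sided exact permutation test gave p = 0.0286, and 0.214 after adjustment over 15 ratio tests, so this difference did not pass the correction. Against SE (-1.75 ± 0.69) the difference was 1.61, with exact p = 0.0571. For the other ligand, the log2 ratio of Il1a to Il1rn differed by 0.70 between GLA-SE and PBS (exact permutation p = 0.114), and the groups overlapped. Between GLA-SE and SE that ratio differed by 0.055 (exact permutation p = 0.886).

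The log2 ratio of Il1a to Il1b was lower in every GLA-SE tumor than in every PBS tumor, at -3.11 ± 0.77 against -1.73 ± 0.28 (SD, n = 4 each). The difference was -1.38 (exact permutation p = 0.0286, adjusted 0.214). Il1b thus differed from PBS by more than Il1a within the tumors. The log2 ratio of the decoy to the signaling receptor, Il1r2 to Il1r1, was positive in GLA-SE tumors 3 and 4 (0.70 and 0.52) and negative in the other 10 tumors. Its mean difference between GLA-SE and PBS was 0.64 (exact permutation p = 0.314). The ratio of the 2 receptor chains, Il1rap to Il1r1, differed by -0.04 between GLA-SE and PBS (exact permutation p = 0.857), and its values over all 12 tumors lay between -1.59 and -0.78. Of the 5 ratios, this one varied least.

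**Figure D3:**
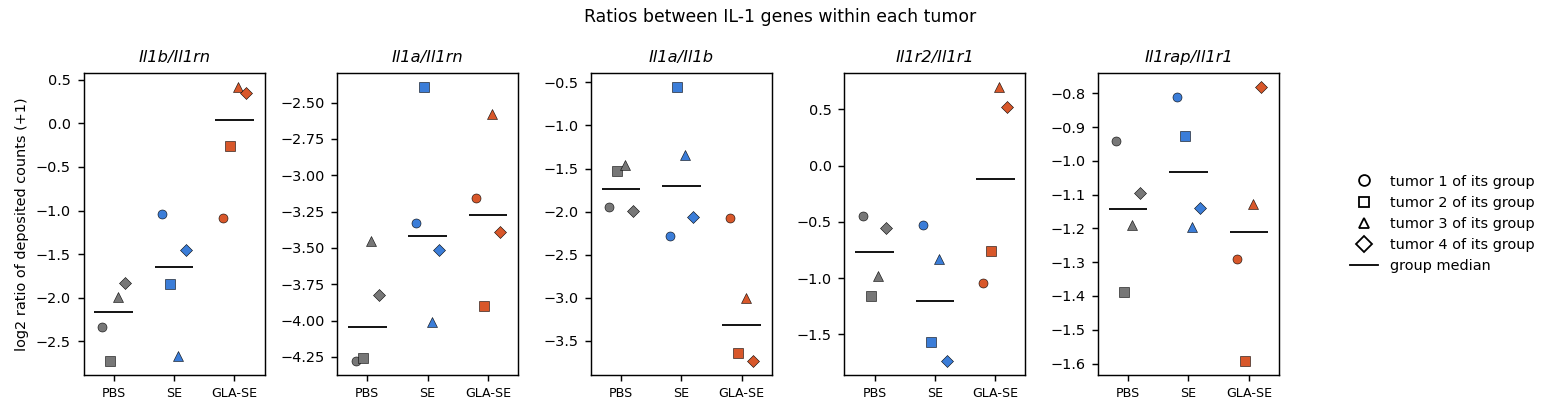
Log2 ratios of deposited counts (1 added to each) between pairs of IL-1 genes within each tumor, with a line at the group median. Il1b to Il1rn lies above PBS in all 4 GLA-SE tumors (up to 0.42) and Il1a to Il1b lies below PBS in all 4, while Il1rap to Il1r1 overlaps between the groups.

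How the 7 genes moved together over the 12 tumors is given as a description, since the tumors share treatment groups. On log2 counts all 21 pairs had a positive Pearson r, from 0.67 for Il1b with Il1r1 to 0.97 for Il1rap with Il1rl1, which were 0.55 and 0.95 with each group centered on its mean. Il1r1 had r = 0.96 with Il1rap, Il1b had 0.93 with Il1a, and Il1rn had 0.97 with Il1r2. Pairs of a receptor with the antagonist or with the decoy receptor lay between, such as Il1rn with Il1rl1 at 0.86, Il1r2 with Il1rl1 at 0.83 and Il1r2 with Il1rap at 0.82. The receptor genes Il1r1, Il1rap and Il1rl1 had r from 0.94 to 0.97 with each other. Pairs among Il1a, Il1b, Il1rn and Il1r2 had r from 0.86 to 0.97, and pairs across these sets from 0.67 to 0.86. The sets were not cleanly apart. With each group centered on its mean, Il1a with Il1r2 had r = 0.79, below Il1r2 with Il1rl1 at 0.86.

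Among the 667 genes with a mean scaled count of at least 20, the 3 most like each IL-1 gene over the 12 tumors were also picked out by Pearson r. For Il1a they were Nfkbia (0.98), which encodes an inhibitor of NF-kB that NF-kB itself induces, Ccrl2 (0.98) and Tank (0.96). For Il1b they were the death receptor gene Fas, the pyrin gene Mefv and the cytokine signaling inhibitor gene Socs3, each at 0.98. For Il1rn they were Sbno2 (0.98), Oasl1 (0.97) and the TNF receptor gene Tnfrsf1b (0.97). Il1r2 was most like Csf3r (0.96), which encodes the G-CSF receptor of neutrophils, Arg2 (0.96) and the chemokine gene Ccl4 (0.96). The lists for the other receptors overlapped, with Tlr7 near both Il1r1 (0.98) and Il1rap (0.97) and Tfe3 near both Il1rap (0.99) and Il1rl1 (0.97). Il1r1 was also close to the tetraspanin gene Cd63 and to Notch1 (0.98 each), Il1rap to the cathepsin gene Ctsl (0.97), and Il1rl1 to Map2k4 (0.98) and the chemokine gene Ccl7 (0.97). Without GLA-SE tumor 3, r for Il1a with Nfkbia was 0.96 and for Il1r1 with Cd63 0.98.

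The rest of the IL-1 pathway was read from lists of related panel genes. In GLA-SE against PBS, 3 of 4 genes of the inflammasome and of IL-1 processing were called higher and none lower (list median 1.53), where 68.4% of all tested genes were called higher. The counts of the other lists in this comparison stand against that same share. Nlrp3, a sensor of inflammasomes, was 3.48 higher on the log2 scale (SE 0.79, adjusted p = 0.00519 in edgeR's test), and 2.14 without GLA-SE tumor 3. Mefv was 2.62 higher (SE 0.51), and 1.89 without that tumor. Casp1, the protease that cleaves pro-IL-1 beta, was called at only 0.45 (SE 0.10), below the panel median, and under panel median scaling it was -0.84. The adapter gene Pycard was 0.33 (SE 0.33, adjusted p = 0.389). In GLA-SE against SE none of these 4 was called. Nlrp3 (2.60, adjusted p = 0.156 in edgeR's test) and Mefv (2.19, adjusted p = 0.104) had all 4 GLA-SE tumors above all 4 SE tumors, as did 14.7% of the tested genes.

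Of 18 genes that carry the signal from IL-1R1, 13 were called higher in GLA-SE than in PBS, near the 68.4% of the whole panel, none was lower, and the list median was 0.46 against the panel's 0.90. The larger differences were in inducible members, the kinase gene Irak2 at 1.75 (adjusted p = 0.00167 in edgeR's test), Nfkbia at 1.51 (0.84 without GLA-SE tumor 3), and Irak3, an inhibitory IRAK, at 1.37. The adapter gene Myd88 was 0.81, and the kinase gene Irak4 0.56. Chuk (0.13), Mapk14 (0.12) and Mapk8 (0.19) did not pass the test. Several of these proteins also serve TLR4, so the list is not specific to IL-1. On the panel median scale Irak4 (-0.72) and Myd88 (-0.51) were below 0, whereas Irak2 was 0.41 and Irak3 0.03, and 3 of the 18 genes were above 0.

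Of 17 genes that IL-1 can induce, most of which TLR4 ligands also induce, 14 were called higher in GLA-SE than in PBS and none lower, with a median of 2.25. The called genes with the smallest adjusted p were those for the adhesion molecules Icam1 (1.47), Vcam1 (1.77) and Sele (2.28) and the iron-binding protein gene Lcn2 (3.74, or 2.83 without GLA-SE tumor 3). Ptgs2, which encodes the prostaglandin synthase COX-2, was 4.29 (2.19 without GLA-SE tumor 3), Il6 4.08 (2.30) and the neutrophil chemokine gene Cxcl1 3.96 (2.66). The PBS means of Il6, Cxcl1 and Sele were low, at 12.6, 16.8 and 12.9 counts, so the sizes of these differences are less certain. On the panel median scale 13 of the 17 were above 0, with a median of 0.80. Csf2 (0.84), Mmp9 (0.41) and Saa1 (0.28) did not pass the test. In GLA-SE against SE only Mmp9 of this list was called (1.72, adjusted p = 0.0229 in edgeR's test), and its SE tumors all lay below the PBS tumors. All GLA-SE tumors lay above all SE tumors for 4 of the 17 genes, against 14.7% of the tested genes. These were Mmp9 and, without a call, Ptgs2 (3.83), Nos2 (2.53) and Icam1 (1.16). Lcn2 was 0.10 in that comparison, with a mean of 941 in SE and 1007 in GLA-SE against 75.4 in PBS. This SE mean rested on SE tumor 4. Without that tumor Lcn2 was 3.29 in GLA-SE against SE, and in SE against PBS it went from 3.64 to 0.45. In SE against PBS no gene of these 3 lists was called.

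Among the 6 other IL-1 family genes on the panel, 5 were called higher in GLA-SE than in PBS and none lower, with a median of 1.12. They were the cytokine gene Il18 (1.72), its receptor chain genes Il18r1 (1.23) and Il18rap (1.22), Il1rl2 (1.02), which encodes the IL-36 receptor, and the inhibitory receptor gene Sigirr (0.80). Il1rapl2, an accessory protein-like gene, was at 12.2 and 11.2 counts and differed by 0.12. On the panel median scale 2 of these 6 genes, Il18 (0.39) and Il18r1 (0.0068), were above 0. None of the 6 was called in SE against PBS or in GLA-SE against SE.

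**Figure D4:**
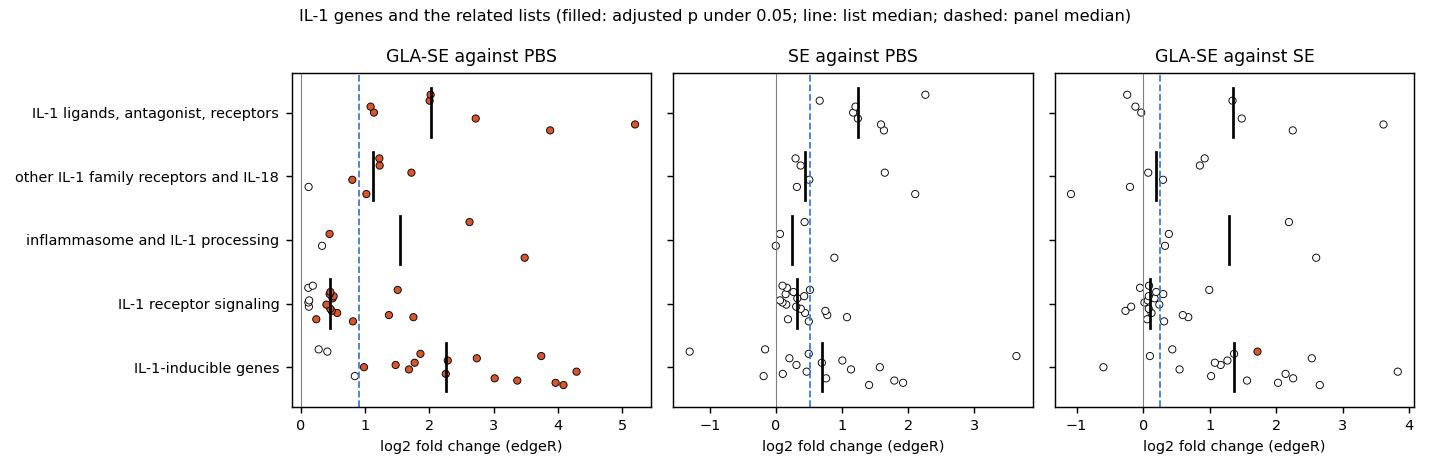
Log2 fold changes (edgeR) of the 7 IL-1 genes and 4 related lists in the 3 comparisons, each point 1 gene, filled where the adjusted p was under 0.05, with a solid line at each list's median and a dashed line at the panel median. In GLA-SE against PBS the IL-1 genes (median 2.02) and the IL-1-inducible genes (2.25) lie to the right of the panel median of 0.90 and the signaling genes (0.46) to its left.

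These are whole tumors, in which fewer cells of a type and less RNA per cell cannot be told apart, so markers of cell types are given beside the IL-1 genes. Each sum mostly follows its most abundant genes. In GLA-SE tumors these were Lyz2 (mean 83722) for monocytes and macrophages, and S100a8 (2718) and Fpr2 (1546) for neutrophils. For endothelium and fibroblasts they were Col3a1 (13432) and Col1a1 (6835). The neutrophil markers Ltf (13.1) and Camp (13.8) were low there. Summed monocyte and macrophage markers (8 genes) were 29061 to 37260 in PBS and 83699 to 124890 in GLA-SE tumors, and all 8 were called higher, in a comparison in which 68.4% of all tested genes were. Summed neutrophil markers (7 genes) were 479 to 561 in PBS and 1692 to 11997 in GLA-SE tumors, with GLA-SE tumor 3 highest, and 5 of the 7 were called higher. S100a8 was the largest of them, 5.04 higher than in PBS (3.62 without GLA-SE tumor 3). Endothelial and fibroblast markers (10 genes, all called higher) summed to 4120 to 9299 in PBS and 18232 to 26768 in GLA-SE tumors. Mast cell markers (4 of 5 called) were 137 to 177 in PBS and 246 to 409 in GLA-SE tumors. T cell markers (5 of 7 called) summed to 819 to 2287 in PBS and 2367 to 3316 in GLA-SE tumors, and NK cell markers (3 of 5 called) to 254 to 633 and 903 to 1021. On the panel median scale all 8 monocyte and macrophage markers were still above 0 (median 0.33), as were 5 of the 7 neutrophil markers (median 0.84) and 3 of the 5 NK cell markers. On that scale 3 of the 10 endothelial and fibroblast markers and none of the T cell or mast cell markers were above 0. Of 7 B-cell markers, Ms4a1 (-0.44) and Cd79b (-0.41) were called lower, against 0.4% of the tested genes. On the panel median scale none of the 7 was above 0 (median -1.52), and with TMM scaling none was either (median -1.14).

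The SE tumors differed from each other in these markers as they did in the IL-1 receptor genes. Endothelial and fibroblast markers summed to 3530 and 4405 in SE tumors 1 and 2 and to 28192 and 120659 in tumors 3 and 4. Col3a1 (mean 28096 in SE) and Col1a1 (8807) made up most of these sums. The mean of log2 counts, in which each gene of this list weighs the same, was 6.87 and 7.16 in SE tumors 1 and 2. It was 8.60 and 10.6 in tumors 3 and 4. Mast cell markers, a cell type in which Il1rl1 is well known, were 109 and 113 in tumors 1 and 2 and 529 and 2848 in tumors 3 and 4. Monocyte and macrophage markers were 24292, 30881, 72887 and 106397, and neutrophil markers 463, 318, 972 and 1378. The part of these cells in the IL-1 values was not tested. No marker was at 0 in any tumor, since the lowest deposited count was 1.

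**Figure D5:**
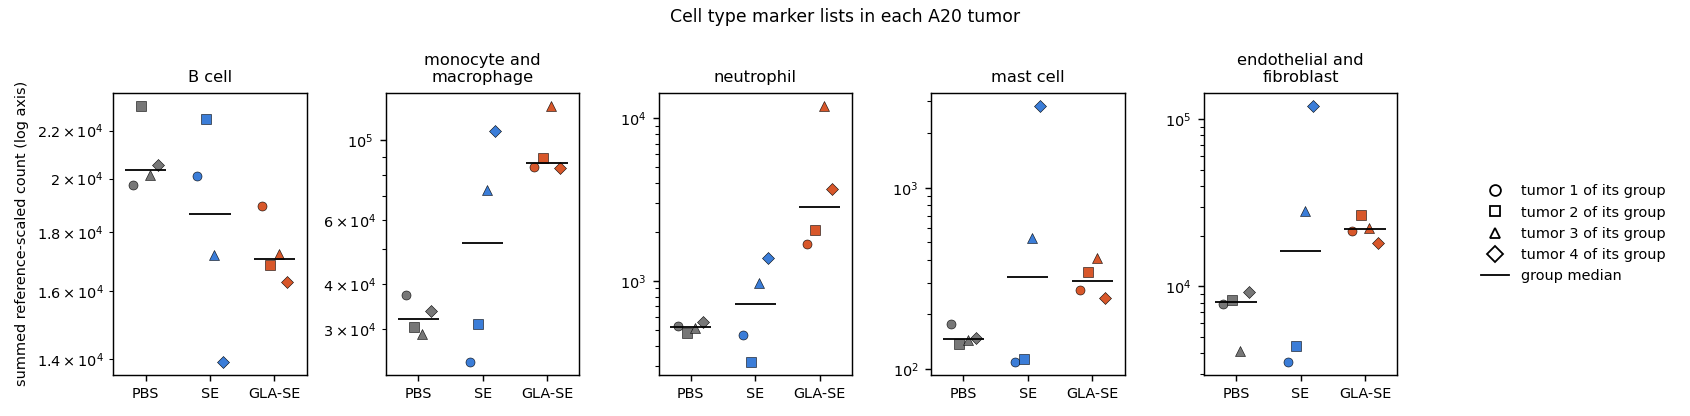
Summed reference-scaled counts (log axis) of 5 lists of cell type markers in each tumor, with a line at the group median. A sum mostly follows the most abundant genes of its list. GLA-SE tumor 3 is highest for the neutrophil markers (11997), and SE tumor 4 is highest for the mast cell (2848) and the endothelial and fibroblast markers (120659).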

How the data were processed

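RNA of 12 tumors (4 per group) was measured by the authors with an nCounter mouse immune panel. The deposited values are whole-number counts per gene. The study's methods describe housekeeping normalization in nSolver, but these counts differed between tumors in total and in reference genes, so they were treated as raw and the normalization was done again. Of 20 reference genes, 16 were kept by geNorm over all 12 tumors (Alas1, Eef1g, G6pdx and Gusb were dropped). edgeR 4.0.16 (R 4.3.3) quasi-likelihood tests were run on the 8 tumors of each comparison, on 750 genes, without a filter or covariate, with Benjamini-Hochberg adjustment and a threshold of 0.05. Exact permutation tests used log2(scaled count + 1). The SE of a log2 fold change was taken from the F statistic. limma 3.58.1 and DESeq2 1.42.0 were alternatives. The fit was tested on simulated data. The 7 members and all lists were chosen with earlier results of these data known. All 7 symbols matched RefSeq, as did 754 of the 770 panel symbols directly. All 7 genes were named, of each list up to 4 genes with the smallest adjusted p and others chosen after their values were seen, and the 3 genes most like each member by Pearson r. Tumors came from separate mice. Totals per tumor limit precision at low counts.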

Additional observations from a re-analysis of the deposited data

Results flagged for a closer look

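In a search of 36 sets of 4 tumors for a value far from the other 3 of its group, 2 were found, where chance would give about 1.8. Both were GLA-SE tumor 3, whose Il1a count was 1478, against 98.7 to 178 in the other GLA-SE tumors, and whose Il1rn count was 8857, against 886 to 1872. The same tumor had the highest Il1b count (11840.4) and the highest summed neutrophil markers (11997) of all 12, and its part in the group means is given by the values without it. What set this tumor apart was not tested.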

How the results depend on the processing

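Alternatives to the fit changed the scale, the low-count filter, the tool, the tumors or the block. Of 145 alternative log2 fold changes of the 7 IL-1 genes in GLA-SE against PBS, 132 kept direction and call, 11 lost the call and 2 changed sign. The calls among the 7 fell to 4 with TMM, 2 with panel median scaling, 4 with all 12 tumors in 1 fit and 4 with DESeq2's own size factors, while DESeq2 with reference size factors called all 6 to which it gave an adjusted p (it gave none to Il1a). Panel median scaling turned Il1r1 to -0.20 and Il1rap to -0.23, and in SE against PBS it turned Il1r2 to -0.079. Called panel genes went from 516 (513 higher, 3 lower) to 316 with TMM (148 and 168), 255 in the 12-tumor fit, 342 with DESeq2's own size factors (190 and 152) and 368 with panel median scaling (61 and 307). In SE against PBS, DESeq2 called 38 panel genes with reference and 9 with its own size factors, and 1 IL-1 gene, Il1a, with either. In GLA-SE against SE, 1 IL-1 gene, Il1b, was called without rescaling, in the 12-tumor fit and by DESeq2 with either size factors. Called panel genes there went from 16 to 3 (TMM), 0 (panel median), 89 (no rescaling), 79 (12-tumor fit), 106 and 72 (DESeq2 with reference and own size factors), and ranged from 4 to 105 when 1 tumor was left out, with 105 without SE tumor 4, 9 and 7 without SE tumors 1 and 2, and 4 without SE tumor 3 or GLA-SE tumor 2 or 4. Leaving out GLA-SE tumor 3 and SE tumor 4 together, chosen after seeing the data, gave 52. In that comparison the sign of 3 receptor genes changed. Il1r1 was 0.011 with reference genes selected on the 8 tumors, 0.40 without rescaling, 0.36 and 0.38 with limma (pseudocounts 10 and 1), -0.32 to 0.64 with 1 tumor left out (0.056 and 0.088 without GLA-SE tumors 1 and 4, 0.087 and 0.64 without SE tumors 3 and 4), and 0.47 without both tumors. Il1rap was 0.27, 0.17 and 0.20 without rescaling and with limma, -0.39 to 0.52 with 1 tumor left out, and 0.31 without both. Il1rl1 was 0.31, 0.34 and 0.42, then -0.72 to 0.93, and 0.45 without both. The difference between GLA-SE and SE in the log2 ratio of Il1a to Il1rn went from 0.055 to -0.010 with pseudocount 10. The causes were not tested. Replicate numbers do not mark shared animals, and same-numbered tumors did not deviate together (r from -0.25 to 0.18). With the replicate number as a block, GLA-SE against SE gave 0 called panel genes, and Il1r1, Il1rap and Il1rl1 were 0.42, 0.22 and 0.48, while GLA-SE against PBS gave 439 called genes and all 7 IL-1 genes. Depth limits genes near 20 counts, and the lowest deposited count of an IL-1 gene was 25, for Il1a in PBS tumor 2 (23.4 when scaled).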
